A study of Mus musculus with 12 samples.

Results

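Apoa1, Apoa5, Apoc3, Apoe, Lpl, Lipc, Lcat, Angptl4 and Angptl8, 9 genes that encode or regulate the proteins of plasma lipoproteins, were examined in livers and intestines of mice given CORT, corticosterone, the main glucocorticoid of rodents, or vehicle (Veh). They were picked by gene name from the 55416 genes that the table of each tissue lists, and all 9 names occur in both tables. Male C57BL6/J mice, 8 weeks old at the start, received CORT at 40 mg/kg or the vehicle subcutaneously every day for 8 weeks. No engineered allele is named for the animals, and the Veh animals had the same injections without the hormone. RNA came from 50 mg of liver or of duodenum, which the sample labels call intestine, with 3 Veh and 3 CORT libraries per tissue and 12 in all, numbered 1 to 3 in each group. The values are TPM, a relative abundance of transcripts that is corrected for gene length and scaled within each library.

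Triglyceride and cholesterol travel in plasma as particles coated with apolipoproteins: the intestine packs dietary fat into chylomicrons and the liver releases VLDL. Lipases in the vessels, Lpl in peripheral tissues and Lipc in the liver, hydrolyse the lipid of these particles, and secreted proteins raise or lower their activity: Apoa5 promotes the action of Lpl, whereas Apoc3, Angptl4 and Angptl8 restrain it. Apoa1 is the main protein of HDL, Lcat esterifies the cholesterol that HDL takes up, and Apoe is the ligand by which the liver removes remnant particles.

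The labels were first checked against the libraries. Fkbp5, a gene that glucocorticoids induce, was at 7.14 to 19.5 TPM in the Veh livers against 221 to 273 TPM in the CORT livers, and at 8.68 to 23.3 TPM against 252 to 379 TPM in the intestine, so every library carried the response its label implies. The summed TPM of 7 hepatocyte markers was 86657 to 110099 in Veh and 106209 to 112517 in CORT livers. That of 8 enterocyte markers was 8895 to 13110 in Veh and 10996 to 11672 in CORT intestines. Single genes moved in both directions under the latter sum, with 4 of the 8 higher in CORT. Only Fabp2 was without overlap between the groups, at 2204 to 3360 TPM in Veh and 4153 to 6356 TPM in CORT. In the liver the enterocyte genes Vil1, Sis, Lct, Cdx1, Cdx2 and Alpi stayed below 1 TPM in every library, but Fabp2 and Anpep did not. They were at 26.3 to 111 TPM and 57.1 to 74.0 TPM there. Alb, Fgb, Serpina1a and Tat stayed below 1 TPM in the intestine. The other hepatocyte genes did not: Cps1 was at 205 to 242 TPM, Ttr at 3.75 to 6.5 TPM and Cyp2e1 at 1.2 to 10.9 TPM. The intestine libraries Veh2 and Veh3 stood apart: 10 pancreatic acinar markers summed to 28255 and 24143 TPM there, against 169 TPM in Veh1 and 140 to 314 TPM in CORT. The intestine calls below are therefore also given without these libraries. That fit has Veh1 as the lone Veh library and takes its spread from the CORT group alone, and since it called 10 genes in all, its adjusted p says little about an effect.

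In the liver, none of the 9 genes passed the test for a difference between CORT and Veh, and in the intestine 1 did, Angptl4, the inhibitor of Lpl, which rose with a ratio of mean TPM of 10.1. A gene counted as called when its fold change exceeded 1.5 and limma's adjusted p was at most 0.05. This rule called 6.92% of all 11699 genes tested in the liver (4.91% as higher and 2.01% as lower in CORT) and 2.15% of 13607 in the intestine (1.23% and 0.919%). Genes were tested when the mean was at least 1 TPM in either group, which took in all 9 in the liver and 6 in the intestine, where Apoa5, Lipc and Lcat fell below it. Without adjustment for multiple testing, 2 of the 9 genes in the liver (Lpl and Angptl4) and 2 of the 6 in the intestine (Apoa1 and Angptl4) met the limit on fold change with a p of at most 0.05, as 15.5% and 10.3% of all genes tested did. CORT and Veh libraries were fully apart for 4 of 9 genes in the liver (3 higher and 1 lower in CORT), against 32.2% of all genes tested there (20.6% higher and 11.6% lower), and for 3 of 6 in the intestine, all higher, against 26.4% (12.2% higher and 14.3% lower). The median log2 fold change was 0.01 over the 9 genes in the liver and 0.62 over the 6 tested in the intestine, beside 0.08 and -0.01 over all genes tested. For one gene alone, an exact two-sided permutation test of 3 against 3 libraries cannot give a p below 0.1.

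**Figure D1:**
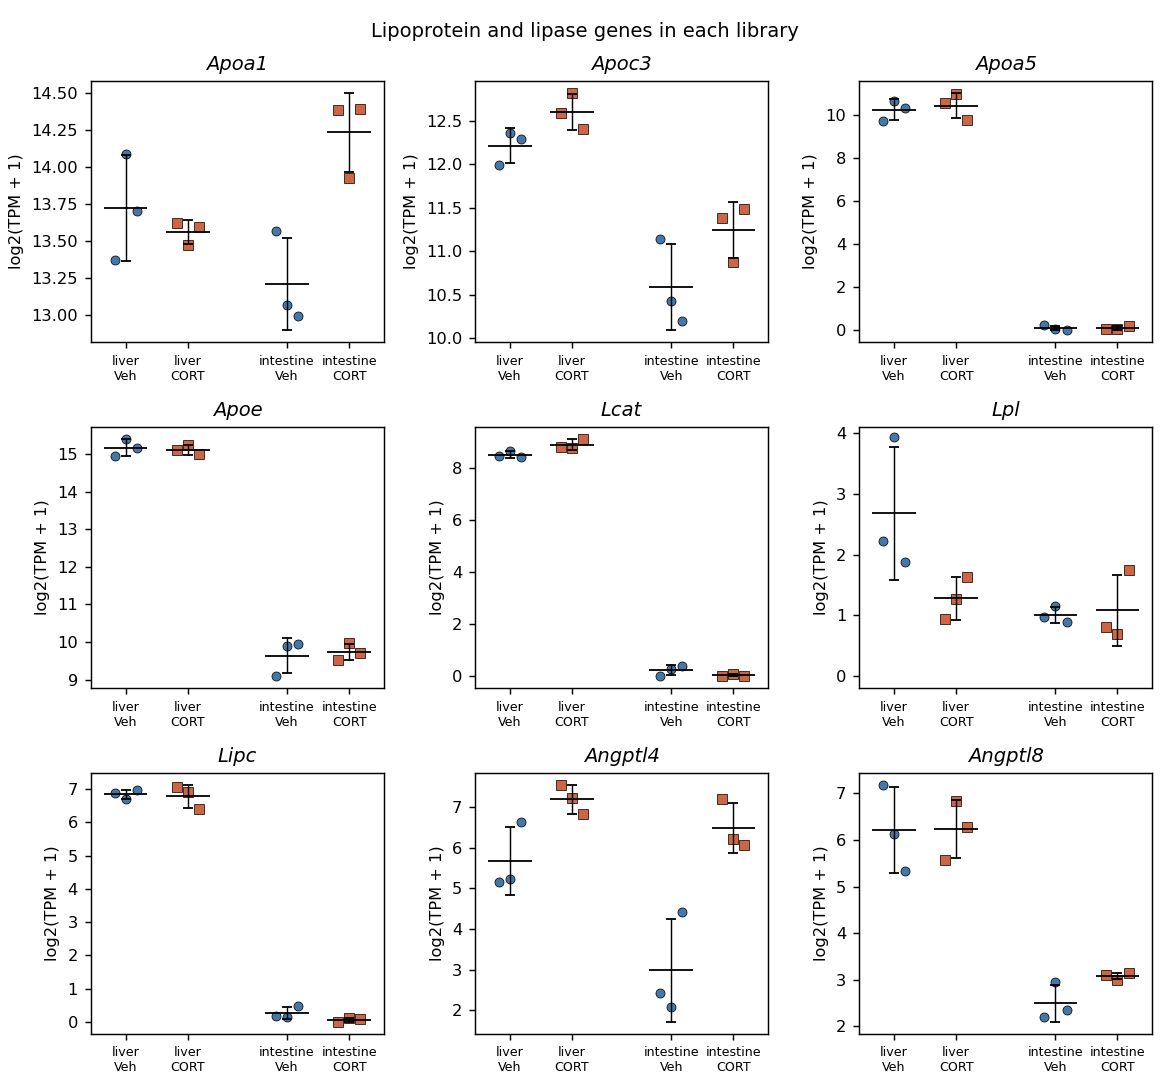
Level of each of the 9 genes as log2(TPM + 1) in the 12 libraries, with circles for Veh and squares for CORT, ordered from library 1 to 3 within a group, a long line for the mean and whiskers for the SD (n = 3). The vertical scales differ between panels; Angptl4 in the intestine lies between 3.24 and 20.5 TPM in Veh and between 65.5 and 145 TPM in CORT, while Apoa5, Lcat and Lipc lie near 0 in the intestine.

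Angptl4 (ENSMUSG00000002289, chromosome 17) is secreted, unfolds Lpl and so lowers its activity, and fasting and glucocorticoids are known to induce it in several tissues. In the intestine it was at 4.37, 3.24 and 20.5 TPM in Veh1, Veh2 and Veh3 and at 145, 72.7 and 65.5 TPM in CORT1, CORT2 and CORT3. Every CORT library was thus more than 3 times above the highest Veh library, and Veh3 was far above the other Veh libraries. The means were 9.37 ± 9.66 TPM and 94.3 ± 43.8 TPM (SD, n = 3), a log2 fold change of 3.50 on log2(TPM + 1) with a standard error of 0.62 (95% interval 2.03 to 4.97, limma adjusted p = 0.0434). RNA of whole tissue cannot tell more RNA per cell from more cells of one kind. The log2 fold change was between 3.06 and 4.23 in the 15 alternatives, but the call held in 6 of them. Among these 6 are unadjusted p-values and no limit on fold change. Both reuse the main fit under looser rules, so the call could not be lost there. When single libraries were left out, it held without Veh3 (log2 fold change 4.23), and without Veh1, Veh2, CORT1, CORT2 or CORT3 the log2 fold changes were 3.23, 3.06, 3.15, 3.64 and 3.72, with adjusted p between 0.0865 and 0.115. Without both Veh libraries that held acinar transcripts it was 4.06 (limma adjusted p = 0.134). Some markers moved with the groups in the intestine. The 5 red blood cell genes were all higher in CORT without overlap and none was called (sum 119 to 247 TPM in Veh, 366 to 706 TPM in CORT). Of all genes tested there, 12.2% were higher without overlap and 1.23% were called higher. The sum of the 7 adipocyte genes was 152 to 171 TPM in Veh and 257 to 343 TPM in CORT, nearly all of it from Cidec and Fabp4. Only these 2 of the 4 tested were without overlap, and 1 of the 4 was called higher. Cfd was at 0 to 4.13 TPM in Veh and at 0 to 1.66 TPM in CORT, and Adipoq and Lep were listed at 0 in Veh3 and CORT2. None of the 5 smooth muscle genes was higher in CORT, and 2 were lower without overlap (sum 370 to 747 TPM in Veh, 242 to 383 TPM in CORT). Of 5 fibroblast and stellate genes 1 was higher, and 2 were lower without overlap. None of these 2 lists was called, and 14.3% of all genes tested were lower without overlap. Of 7 macrophage genes tested, 3 were higher and 1 was called higher. The part of all these markers in the Angptl4 and other intestine values was not tested.

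In the liver Angptl4 was at 34.5, 36.3 and 97.5 TPM in Veh and at 185, 147 and 112 TPM in CORT. The groups did not overlap, but Veh3 came close to CORT3. The means were 56.1 ± 35.9 TPM and 148 ± 36.8 TPM (SD, n = 3), a log2 fold change of 1.52 with a standard error of 0.41 that did not pass the test (95% interval 0.56 to 2.49, limma adjusted p = 0.0708). Without Veh3 it was 2.00 and passed (limma adjusted p = 0.0193). Veh3 also held the highest Fkbp5 of the Veh libraries in each tissue, 19.5 TPM in the liver and 23.3 TPM in the intestine, and the part of this in the Angptl4 values was not tested. The difference between the tissues' responses of Angptl4, -1.98 (liver minus intestine, standard error 0.83), did not pass the test of a treatment by tissue term (limma adjusted p = 0.237).

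Angptl8 (ENSMUSG00000047822, chromosome 9), a secreted protein that feeding induces in liver and fat, showed no such pattern in the liver. It was at 145, 68.8 and 39.6 TPM in the Veh livers and at 46.9, 112 and 76.9 TPM in the CORT livers. The groups overlapped over nearly their whole range. The log2 fold change was 0.01 with a standard error of 0.50, and its 95% interval was wide, from -1.16 to 1.19 (limma adjusted p = 0.990). Angptl8 was scarcer in the intestine, at 3.59, 6.74 and 4.07 TPM in Veh and 7.56, 7.0 and 7.81 TPM in CORT. The CORT libraries lay above all Veh libraries and close together, but the log2 fold change of 0.58 (SE 0.21) did not pass the test (limma adjusted p = 0.200).

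Lpl (ENSMUSG00000015568, chromosome 8), the lipase that releases fatty acids from circulating triglyceride, is a gene of fat and muscle that the adult liver holds at a low level. Its liver values were 3.68, 14.3 and 2.69 TPM in Veh and 0.910, 1.41 and 2.10 TPM in CORT. All CORT libraries lay below all Veh libraries, but Veh2 was far above every other library. The means were 6.89 ± 6.44 TPM and 1.47 ± 0.598 TPM (SD, n = 3). The log2 fold change of -1.40 had a standard error of 0.52 and did not pass the test (95% interval -2.63 to -0.18, limma adjusted p = 0.147), and without Veh2 it was -0.78 (limma adjusted p = 0.120). Veh2 also had the highest sum of 5 smooth muscle markers, 11.3 TPM against 2.28 to 7.45 TPM in the other liver libraries. Of the adipocyte markers, it had the highest Fabp4 of the Veh livers, 17.6 TPM against 1.35 and 3.52 TPM. Yet it had the lowest Cfd of the Veh livers, 0.21 TPM against 1.27 and 1.03 TPM. Fabp4 was higher still in the CORT livers, at 19.1 to 42.3 TPM, where Lpl was lowest. Adipoq and Lep, which define adipocytes, were listed at 0 in all 6 liver libraries, and Plin1 and Retn stayed below 1 TPM, while the summed TPM of the 7 adipocyte markers, nearly all from Cidec and Fabp4, was 6.49 to 21.5 in Veh and 52.0 to 139 in CORT. The macrophage markers, 8 genes of which all were tested and none called, summed to 96.4 to 143 TPM in Veh and 75.9 to 207 TPM in CORT. Their part in the Lpl values was not tested.

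In the intestine Lpl was at 0.950, 1.22 and 0.850 TPM in Veh and at 0.750, 0.610 and 2.36 TPM in CORT. CORT3 alone was high, and the other CORT libraries were below all Veh libraries. Its log2 fold change was 0.08 (standard error 0.31, limma adjusted p = 0.915), and without CORT3 it was -0.25. Of the 7 adipocyte markers, CORT3 also had the highest Adipoq (3.02 TPM), Plin1 (1.15 TPM), Lep (1.45 TPM) and Retn (1.39 TPM) of the 6 intestine libraries. Cidec, Fabp4 and Cfd were highest in other libraries. Cidec was at 221.61 TPM in CORT3 against 315.96 TPM in CORT1, and Fabp4 at 34.99 TPM in CORT3 against 36.44 TPM in CORT2. Cfd was at 1.66 TPM in CORT3 against 4.13 TPM in Veh1. The sum of the list, given above for Angptl4, again came mainly from Cidec and Fabp4. Their part in the Lpl value was not tested.

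Lipc (ENSMUSG00000032207, chromosome 9), hepatic lipase, which trims remnants and HDL, was at 117, 103 and 124 TPM in the Veh livers and at 133, 119 and 83.3 TPM in the CORT livers. The CORT libraries held both the highest and the lowest value. A log2 fold change of -0.06 was found with a standard error of 0.19 (95% interval -0.52 to 0.40, limma adjusted p = 0.875). The intestine libraries were between 0.110 and 0.390 TPM in Veh and between 0 and 0.0800 TPM in CORT, and Lipc was not tested there.

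Lcat (ENSMUSG00000035237, chromosome 8), the enzyme that matures HDL, was at 351, 410 and 344 TPM in the Veh livers and at 447, 435 and 563 TPM in the CORT livers. All 3 CORT libraries lay above all 3 Veh libraries, with CORT3 the highest. The means were 368 ± 36.6 TPM and 482 ± 70.6 TPM (SD, n = 3), and the log2 fold change of 0.38 (standard error 0.15, 95% interval 0.02 to 0.74) did not pass the test (limma adjusted p = 0.172). In the intestine Lcat was listed at 0 in Veh1, CORT1 and CORT3 and was at most 0.300 TPM in the others, so it was not tested.

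**Figure D2:**
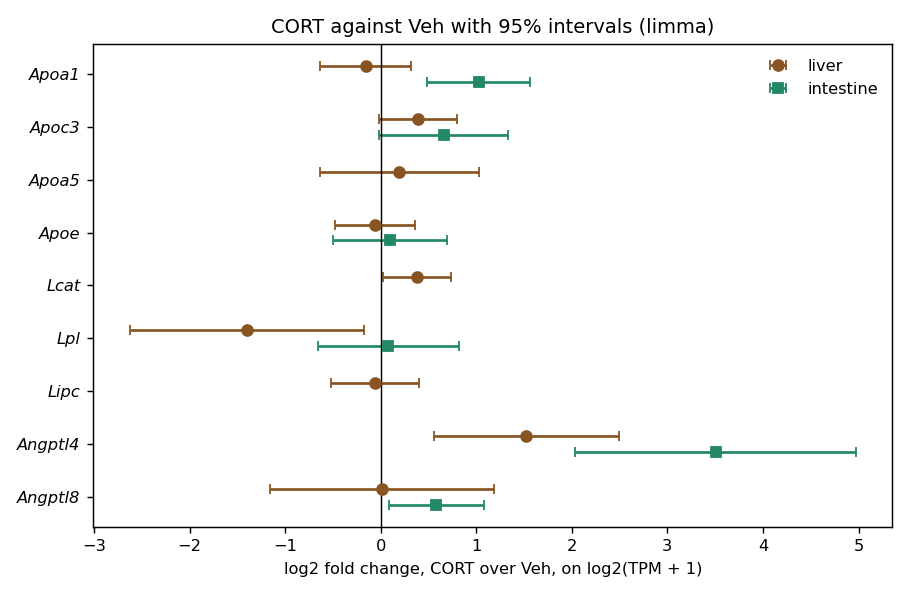
Log2 fold change of CORT over Veh on the log2(TPM + 1) scale, with 95% intervals from limma, for the 9 genes in the liver (circles) and the 6 tested in the intestine (squares). Angptl4 lies to the right of 0 in both tissues, at 1.52 in the liver and 3.50 in the intestine, Apoa1 has -0.16 in the liver against 1.02 in the intestine, and Lpl has -1.40 in the liver against 0.08.

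Apoa1 (ENSMUSG00000032083, chromosome 9), made by both tissues, was at 12149, 8573 and 8173 TPM in the Veh intestines and at 21426, 15581 and 21477 TPM in the CORT intestines. Every CORT library exceeded every Veh library, and Veh1, the Veh library with few acinar transcripts, was the nearest of the Veh libraries to CORT. The means were 9631 ± 2189 TPM and 19495 ± 3389 TPM (SD, n = 3). The log2 fold change of 1.02 (standard error 0.23, 95% interval 0.49 to 1.56) did not pass the test (limma adjusted p = 0.0752), and it was 0.67 against Veh1 alone. In the liver Apoa1 was at 10611, 17425 and 13347 TPM in Veh and at 12637, 11358 and 12363 TPM in CORT, so that the CORT values all lay within the range of the Veh values. There the log2 fold change was -0.16 (standard error 0.20, 95% interval -0.64 to 0.32, limma adjusted p = 0.657).

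The difference between the responses of Apoa1 in the tissues, -1.18 (liver minus intestine, standard error 0.29), came close to the threshold (limma adjusted p = 0.0518). Of all 14806 genes tested for this difference, 3.6% passed, and of the 9 genes none did. The fit takes the 12 libraries as independent, and whether a liver and an intestine library came from the same animal is not given in the sources used here. For Apoa1 it passed with median-ratio scaling (-1.28, limma adjusted p = 0.0189) and without Veh1 of the liver (-1.36, limma adjusted p = 0.0352). It also passed without Veh1 of the intestine (-1.36, limma adjusted p = 0.0276) and without CORT2 of the intestine (-1.34, limma adjusted p = 0.0415). Without Veh1, the Veh group of the intestine consisted of Veh2 and Veh3, the libraries with acinar transcripts. No fit of this term left out both Veh2 and Veh3 of the intestine. Apart from Apoa1 and Angptl4, the limma adjusted p of this term lay between 0.153 (Lcat) and 0.843 (Apoa5). Apoa5, Lipc and Lcat entered this test through their liver levels alone. In the intestine no library exceeded 0.39 TPM for any of them, so their term says little about a response there.

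Apoc3 (ENSMUSG00000032081, chromosome 9), which slows lipolysis and the uptake of remnants, lies next to Apoa1. In the liver it was at 4066, 5268 and 4991 TPM in Veh and at 6136, 7221 and 5431 TPM in CORT. The CORT livers lay above the Veh livers, CORT3 by little. Its log2 fold change was 0.39 (standard error 0.17, 95% interval -0.02 to 0.80, limma adjusted p = 0.209). In the intestine it was at 2254, 1372 and 1169 TPM in Veh and at 2657, 1873 and 2854 TPM in CORT. CORT2 lay below Veh1, so the groups overlapped, and the log2 fold change of 0.66 (standard error 0.28) did not pass the test (limma adjusted p = 0.269).

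Apoa5 (ENSMUSG00000032079, chromosome 9), which assists Lpl, was at 834, 1618 and 1271 TPM in the Veh livers and at 1494, 1966 and 877 TPM in the CORT livers. The groups overlapped, and CORT2 and CORT3 held the highest and the next to lowest value. Its log2 fold change was 0.20 with a standard error of 0.35 (95% interval -0.63 to 1.02, limma adjusted p = 0.759). In the intestine no library exceeded 0.170 TPM, although Apoa1 and Apoc3 beside it were among the abundant transcripts of that tissue.

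Apoe (ENSMUSG00000002985, chromosome 7) was the most abundant of the 9 genes in the liver, at 31252, 43283 and 36815 TPM in Veh and 35280, 38776 and 32385 TPM in CORT. It ranked between 2 and 4 among all genes in the 6 liver libraries, and the CORT values lay within the Veh range. The log2 fold change was -0.06 with a standard error of 0.18 (95% interval -0.48 to 0.36, limma adjusted p = 0.868). In the intestine Apoe was at 548, 946 and 981 TPM in Veh and at 740, 1002 and 837 TPM in CORT. The groups overlapped there too, with Veh1 the lowest library, and the log2 fold change was 0.10 (standard error 0.25, limma adjusted p = 0.865).

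The order of the levels, compared in TPM and so per length, was Apoe, Apoa1, Apoc3, Apoa5, Lcat, Lipc, Angptl8, Angptl4 and Lpl in the Veh livers. The ranges over libraries of Lipc, Angptl8 and Angptl4 overlapped from one to the next, while all other neighbours in the order were apart. In the CORT livers Angptl4, at 148 TPM, came before Lipc, at 112 TPM, and Angptl8, at 78.8 TPM, but these ranges also overlapped. In the Veh intestines the order was Apoa1, Apoc3, Apoe, Angptl4, Angptl8 and Lpl, with Angptl4 and Angptl8 overlapping, and in the CORT intestines Angptl4 was apart from Angptl8. Together the 9 genes made up 4.76% to 6.85% of TPM in the Veh livers and 5.28% to 6.09% in the CORT livers. In the intestine their share was 1.5%, 1.09% and 1.04% in Veh and 2.51%, 1.87% and 2.54% in CORT, most of it Apoa1. The tables of the tissues were scaled separately, so levels were set side by side but not tested between them.

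Several of these genes are neighbours in the genome. In the RefSeq gene order Apoa1, Apoc3, Apoa4 and Apoa5 follow each other on chromosome 9, and Apoc2, Apoc4, Apoc1 and Apoe on chromosome 7. Apoa4, which encodes an apolipoprotein of chylomicrons, was at 76.2, 172 and 117 TPM in the Veh livers and at 2691, 3840 and 555 TPM in the CORT livers. It rose by 3.94 on the log2 scale with a standard error of 0.70 (limma adjusted p = 0.0239). Without CORT3, the lowest CORT library, it was 4.79, and without Veh1, Veh3, CORT1 or CORT2 it was 3.39 to 3.95 and not called (limma adjusted p = 0.0556 to 0.0820). The genes on either side of it, Apoc3 and Apoa5, had 0.39 and 0.20. In the intestine Apoa4 was at 12570, 8298 and 7906 TPM in Veh and 21545, 16882 and 21085 TPM in CORT. The groups did not overlap, and the log2 fold change of 1.07 (standard error 0.23) lay close to the 1.02 of Apoa1 but did not pass the test (limma adjusted p = 0.0703). By Pearson r of log2(TPM + 1) over the 6 intestine libraries, the genes most like Apoa1 were Paqr7 (0.997), Apoa4 (0.996) and Zfp384 (0.995). For Angptl4 over the 6 liver libraries they were Dcun1d3 (0.993), Tiparp (0.988) and Cdip1 (0.986), and for Lpl they were Cxcl10 (0.996), Ptpn3 (0.996) and Hnrnpr (0.995). All these libraries share the treatment groups, and r is given as a description. On chromosome 7, Apoc2, the cofactor of Lpl, was at 307 TPM in Veh and 486 TPM in CORT livers (log2 fold change 0.68, limma adjusted p = 0.188). In the intestine it was at 2581 TPM and 4467 TPM (0.81, limma adjusted p = 0.138). Apoc4 and Apoc1 beside it had 0.02 and -0.04 in the liver. In the intestine they had 0.34 and 0.82 and were not called (limma adjusted p = 0.650 and 0.439). Their means there were low, 0.577 and 1.03 TPM for Apoc4 and 0.413 and 1.64 TPM for Apoc1.

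**Figure D3:**
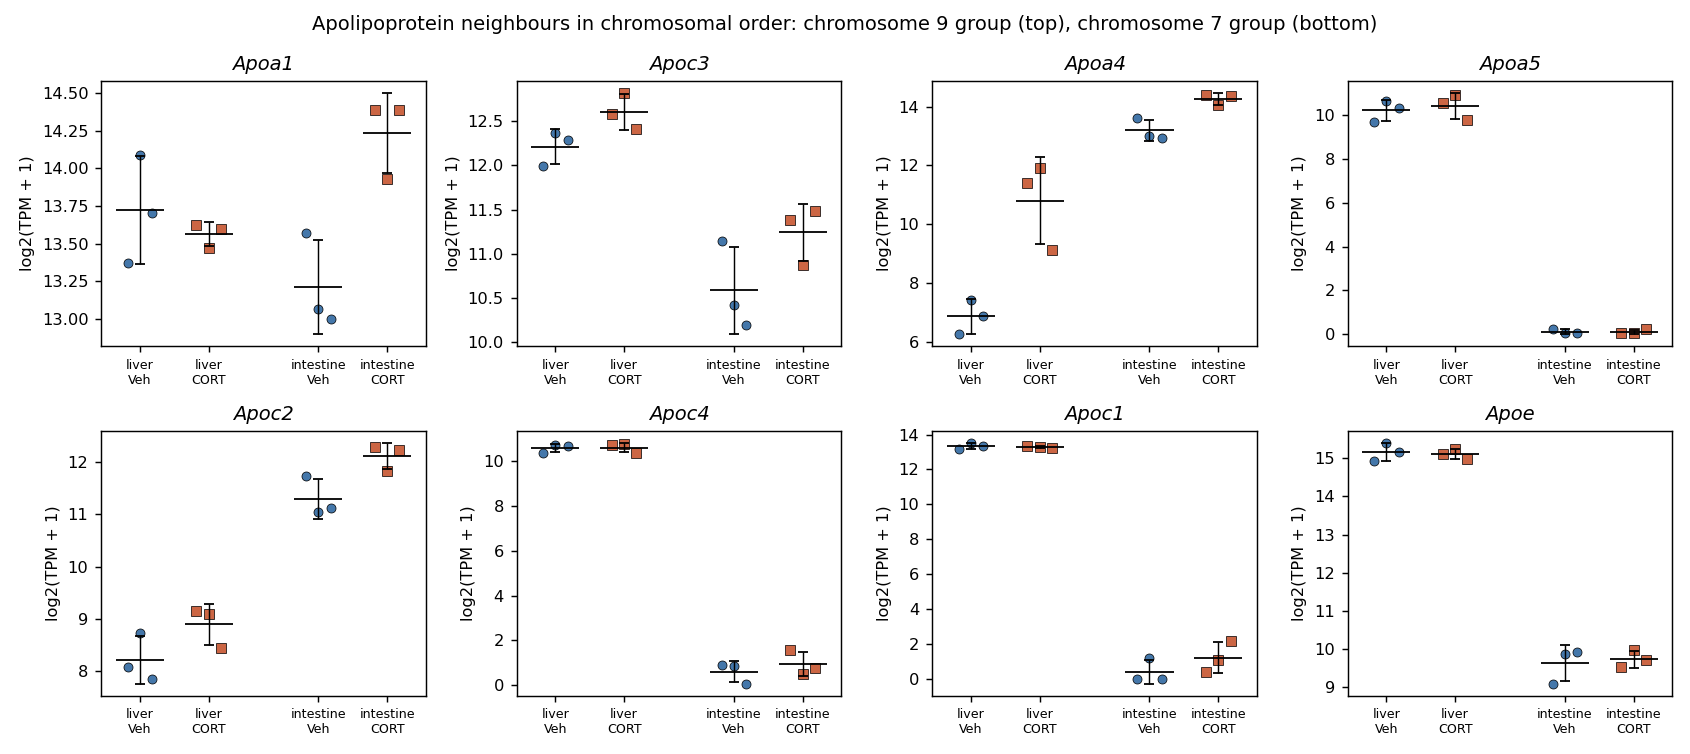
Levels as log2(TPM + 1) of the apolipoprotein genes in chromosomal order, with circles for Veh and squares for CORT, long lines for means and whiskers for SD (n = 3). Apoa4 goes from 76.2 to 172 TPM in the Veh livers to 555 to 3840 TPM in the CORT livers while Apoc3 and Apoa5 move little, and in the intestine Apoa1 and Apoa4 are higher in every CORT library than in every Veh library.

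The sequences before the starts of Apoa1 and Apoa4 are shown because both genes had a like pattern in the intestine and unlike values in the liver. They are the 250 bases upstream of the start annotated in RefSeq, in build GRCm38.p6 on the plus strand, which is an older build than that of the tables. Capitals mark matches to the half-site AGAACA or its complement TGTTCT, to which the glucocorticoid receptor can bind.
Apoa1, chr9:46228380-46228629: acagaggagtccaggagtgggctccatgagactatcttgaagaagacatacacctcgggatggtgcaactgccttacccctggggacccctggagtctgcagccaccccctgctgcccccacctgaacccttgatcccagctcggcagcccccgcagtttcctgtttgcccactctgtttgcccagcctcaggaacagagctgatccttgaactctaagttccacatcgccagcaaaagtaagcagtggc
Apoa4, chr9:46240594-46240843: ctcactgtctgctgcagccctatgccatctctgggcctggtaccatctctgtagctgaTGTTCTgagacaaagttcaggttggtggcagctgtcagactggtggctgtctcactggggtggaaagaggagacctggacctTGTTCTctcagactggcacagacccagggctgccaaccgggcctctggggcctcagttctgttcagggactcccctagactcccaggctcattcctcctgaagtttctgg
The Apoa4 stretch holds 2 such matches, the first bases of which lie 192 and 110 bases before the start, and the Apoa1 stretch holds none. Of 32851 promoters of this length, 16.1% hold the half-site on either strand. The half-site AGAACA followed by its complement TGTTCT with 3 bases between, AGGTCA repeated in the same direction with 1 base between, and CAAAGTCCA, a core motif of Hnf4a, were searched on both strands as well. They occurred in 0.00913%, 0.0335% and 0.384% of promoters and in neither of these stretches. Among the other genes searched, the half-site also lay before Apoc2 and before Apoe, with first bases at -161 and -226. It did not lie before Apoa5, Lipc, Lcat or Angptl8. In the liver Apoc2 and Apoe had log2 fold changes of 0.68 and -0.06, and neither was called. A match is a description of the letters and not a binding site, and its part in these values was not tested.

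The other genes of lipoprotein metabolism were taken as a list of 65 genes in 6 roles. In the liver 58 were tested, 10 rose and 4 fell, or 24.1% against 6.92% of all genes, with a median log2 fold change of 0.20. In the intestine 55 were tested, 4 rose and 2 fell, or 10.9% against 2.15%, with a median of 0.24. The 9 genes above gave 0 of 9 in the liver and 1 of 6, or 16.7%, in the intestine. The lists are not alike in size and no test between them was made.

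Of 12 apolipoproteins tested in the liver, Apoa4 and Saa4 rose and none fell. Saa4, an HDL apolipoprotein of the serum amyloid A family, went from 194 to 744 TPM (log2 fold change 1.96, limma adjusted p = 0.0436). Its acute-phase relatives Saa1 and Saa2, near-identical genes between which reads can be split, had 3.74 and 3.46 with overlapping groups and were not called (limma adjusted p = 0.103 and 0.249). The most abundant of the list, Apoa2 and Apoc1, had -0.19 and -0.04. In the intestine 1 of 8 rose, Apob, the structural protein of chylomicrons, from 379, 221 and 216 TPM in Veh to 679, 1012 and 797 TPM in CORT (log2 fold change 1.64, standard error 0.26, limma adjusted p = 0.0325). Veh1 was the highest of the Veh libraries, and against it alone the value was 1.11 (limma adjusted p = 0.372). In the liver, where Apob carries VLDL, it was at 718 and 650 TPM (-0.14, limma adjusted p = 0.556).

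Among lipases and their helpers, 1 of 9 in the liver was called. Lipg, endothelial lipase, which acts mainly on HDL phospholipid, was at 1.35, 1.31 and 2.78 TPM in Veh and at 23.0, 9.46 and 12.3 TPM in CORT livers. All CORT libraries were above all Veh libraries (log2 fold change 2.45, standard error 0.34, limma adjusted p = 0.0106). Gpihbp1, the anchor of Lpl on capillary endothelium, was at 5.38, 20.6 and 10.7 TPM in Veh and 33.3, 36.2 and 44.4 TPM in CORT, and its 1.72 missed the threshold (limma adjusted p = 0.0519). The 5 endothelial markers Pecam1, Cdh5, Kdr, Tek and Stab2 were all higher in CORT livers without overlap, and 2 of them were called. Of all genes tested in the liver, 20.6% were higher without overlap and 4.91% were called higher. The sum of the 5 endothelial markers was 9.13 to 20.3 TPM in Veh and 32.4 to 40.8 TPM in CORT. Their part in the values of Lipg, Gpihbp1 and Cd36 was not tested. Pon1 and Lipa, the most abundant of this role in the liver, had 0.09 and 0.25. In the intestine 0 of 9 passed in limma, and 4 met the fold limit at an unadjusted p of at most 0.05, against 10.3% of all genes, with Cel among the 4. Lipg there was at 5.08 and 2.45 TPM (-0.83, limma adjusted p = 0.178). Cel, a lipase of the exocrine pancreas, was at 1068 and 867 TPM in Veh2 and Veh3 and at most 0.860 TPM in the other intestine libraries, and Pla2g12b had 0.60 (limma adjusted p = 0.156).

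**Figure D4:**
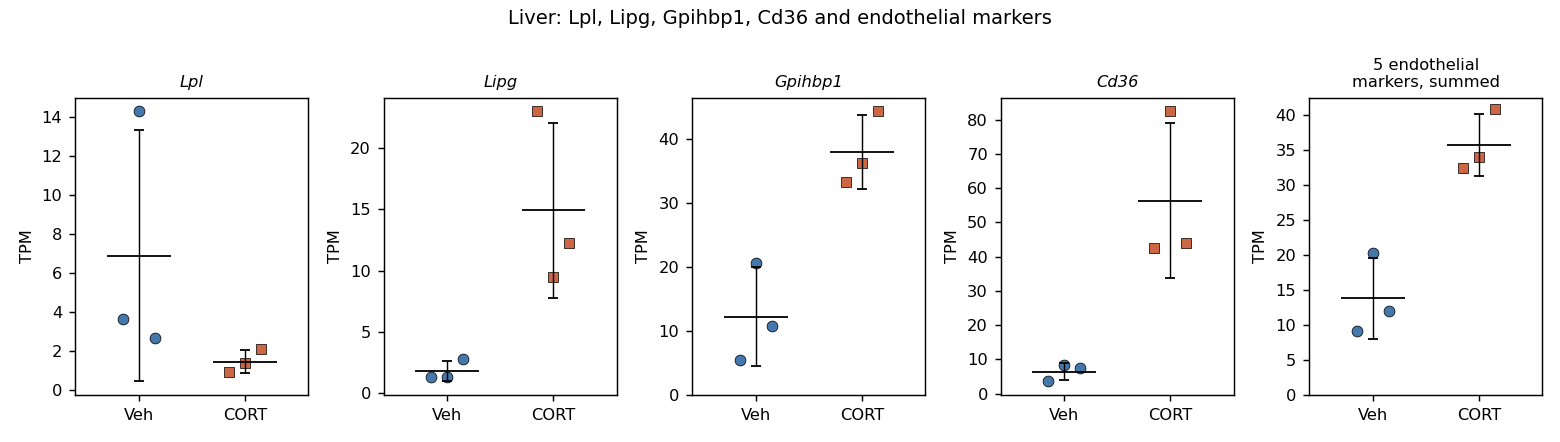
TPM in each liver library of Lpl, Lipg, Gpihbp1, Cd36 and the sum of 5 endothelial markers, with circles for Veh, squares for CORT, lines for means and whiskers for SD (n = 3). Lpl is lower in the 3 CORT libraries, at 0.910 to 2.10 TPM, while the others are higher, Cd36 at 42.6 to 82.4 TPM against 3.56 to 8.4 TPM.

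Of the other secreted regulators, none of 4 tested in the intestine passed in limma, and none had an unadjusted p of 0.05 or less with that fold change. Angptl2 and Angptl1 there had log2 fold changes of -0.49 and 0.10.

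Of 11 receptors and cell surface proteins tested in the liver, 2 rose and 1 fell. Cd36, a fatty acid and lipoprotein receptor, was at 3.56, 8.4 and 7.37 TPM in Veh and at 42.6, 82.4 and 43.9 TPM in CORT (log2 fold change 2.94, standard error 0.35, limma adjusted p = 0.00693). Mylip, a ubiquitin ligase that acts on lipoprotein receptors, rose by 1.42 (limma adjusted p = 0.0148), and Sort1, a sorting receptor that handles Apob, fell by 1.09 (limma adjusted p = 0.0370). The abundant Lrp1 and Lsr had -0.21 and -0.08. In the intestine 1 of 12 passed, Sdc1, a proteoglycan that binds remnants, which fell by 0.73 (limma adjusted p = 0.0462). Cd36 in the intestine was at 30.1 and 89.8 TPM (1.54, limma adjusted p = 0.0879).

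In the role of efflux and particle assembly, Sar1b, a GTPase needed to export chylomicrons from the endoplasmic reticulum, rose in both tissues, by 0.92 in the liver (limma adjusted p = 0.0179) and by 0.69 in the intestine (limma adjusted p = 0.0392), as 1 of 8 tested in each. Mttp, which loads lipid onto Apob, was at 68.4 and 112 TPM in the liver (0.68, limma adjusted p = 0.0869) and at 1025 and 1411 TPM in the intestine (0.47, limma adjusted p = 0.178). Mia2 in the liver had 0.15, and Prap1 in the intestine 0.59.

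Of 14 transcription factors known to act on these genes, 4 rose and 2 fell in the liver. Among those that rose, log2 fold changes were 0.86 for Hnf4a, 0.96 for Creb3l3 and 0.95 for Foxo1 (limma adjusted p = 0.0211, 0.0192 and 0.0357). Hnf4a and Creb3l3 are known activators of Apoa4, and Foxo1 of Apoc3, which was itself not called. The part of these factors in the Apoa4 and Apoc3 values was not tested. Nr1d1, a clock repressor, fell from 46.5 to 11.4 TPM (-1.93, limma adjusted p = 0.00907), and Srebf1, a lipogenic factor, from 96.4 to 28.6 TPM (-1.71, limma adjusted p = 0.0339). In the intestine 2 of 14 rose and 1 fell: the log2 fold changes were 1.21 for Ppara, 1.33 for Nr0b2 and -2.13 for Nr1d1 (limma adjusted p = 0.0329, 0.0253 and 0.0189). Creb3l3 and Hnf4a there had 0.63 and -0.21. Ppara, an activator of Angptl4, was at 42.9 and 73.8 TPM in the liver and was not called there (0.79, limma adjusted p = 0.0894). Ppard, of the same role, had 0.48 in the liver and -0.74 in the intestine, without overlap in both. It was called in neither (limma adjusted p = 0.172 and 0.0654). The part of Ppara and Ppard in the Angptl4 values was not tested. Nr3c1, the glucocorticoid receptor, had -0.01 in the liver and -0.11 in the intestine.

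When each library was left out in turn, Cd36, Lipg and Nr1d1 in the liver were called in all 6 fits. The other liver genes named above as called were called in 0 (Sort1) to 4 (Mylip) of 6, with adjusted p up to 0.131 over their alternatives, and those in the intestine in 0 (Sdc1, Sar1b and Ppara) to 4 (Nr1d1) of 6. Against Veh1 alone, all 6 intestine genes lost their call: beside Apob, the log2 fold changes were -0.67 for Sdc1, 0.57 for Sar1b, 1.29 for Ppara, 1.57 for Nr0b2 and -2.49 for Nr1d1 (limma adjusted p between 0.203 and 0.450). None of these called genes changed its direction in these fits.

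**Figure D5:**
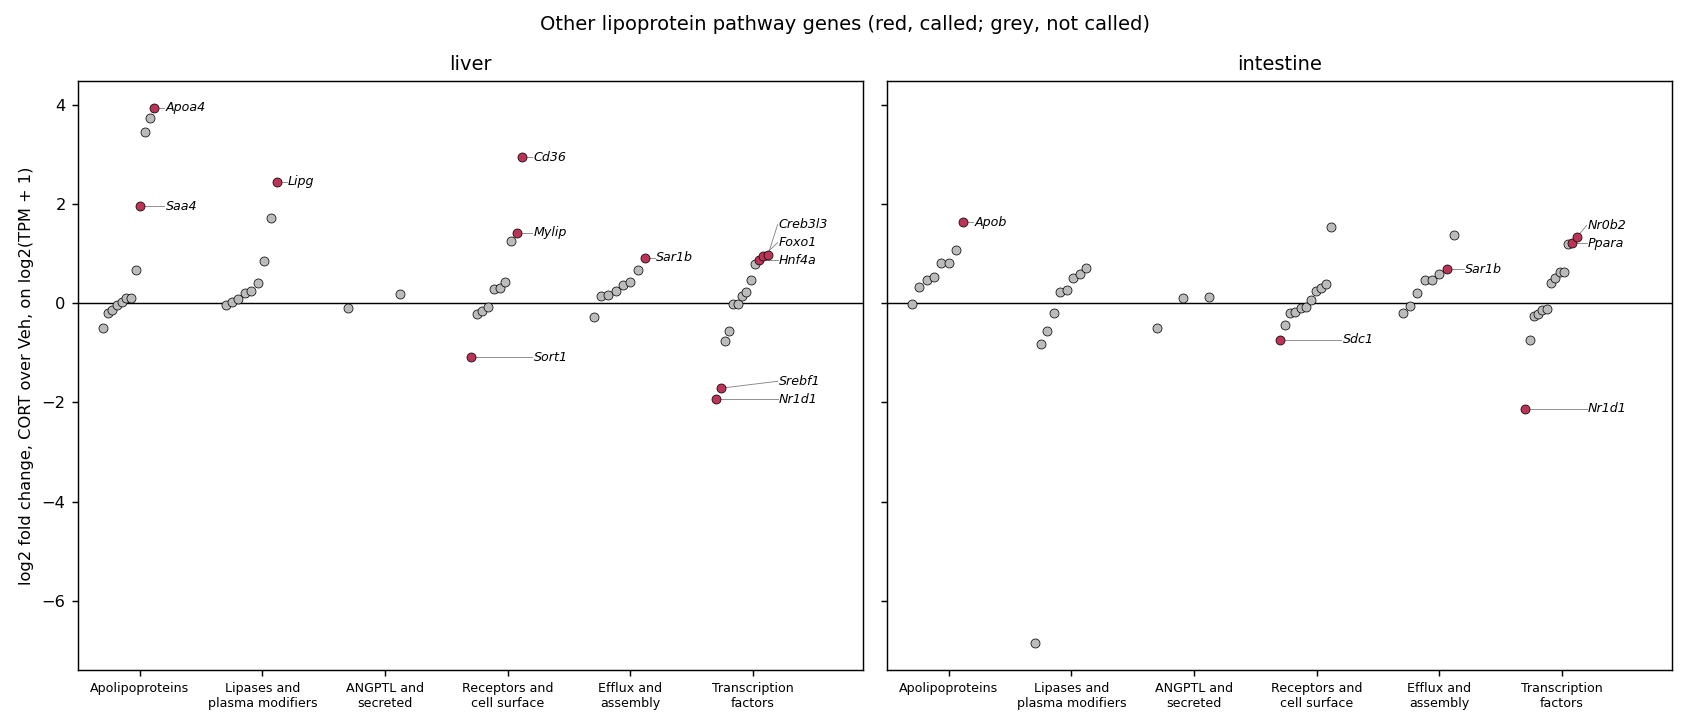
Log2 fold change of CORT over Veh on the log2(TPM + 1) scale for the tested genes of the list that are reported here, by role, in the liver (54 genes) and the intestine (52 genes). Each point is a gene, sorted within its role, red and named where called (12 in the liver, 6 in the intestine) and grey otherwise. The lowest grey point in the intestine is Cel, at 1068 and 867 TPM in Veh2 and Veh3.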

How the data were processed

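RNA-seq of liver and duodenum was used, with 3 Veh and 3 CORT libraries per tissue. The sample labels gave the group and replicate number of each library, and each table column names its sample. Before alignment with HISAT2, assembly with StringTie and quantification with RSEM, the authors processed reads with SeqPrep and Sickle, and they deposited TPM values for single libraries. The processing notes of the submitters name GRCm39. Versions and annotation release are not given in the sources used here, and no coordinates of the tables' build were used. TPM sums were 983327 to 997319 per library, so depth is unknown and no counting error or detection limit can be given.

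log2(TPM + 1) was fitted for each tissue alone with limma 3.58.1 in R 4.3.3 (eBayes with a trend, Benjamini-Hochberg over all genes tested). Genes entered when either group had a mean TPM of 1 or more. This scale understates changes of low genes. The treatment by tissue term was fitted over all 12 libraries. The fits were tested on simulated data. All p-values measure the spread between these samples, which the labels number as biological replicates.

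The 9 genes and the lists were chosen with earlier results of these data known. Of the list of 65, every called gene and the 2 most abundant of each role and tissue are named; the other genes of the list that are named were chosen after their values were seen. A few genes that this rule selects are counted but not reported here. Promoter sequences are from RefSeq, GRCm38.p6, in which Angptl4, Apoc3 and Lpl had no entry in the table used. Alternatives tried were no filter, a pseudocount of 0.1, a replicate block, median-ratio scaling, no trend, unadjusted p-values, no limit on fold change, removal of acinar markers, leaving out each library and, chosen after seeing the data, leaving out Veh2 and Veh3 of the intestine.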

Additional observations from a re-analysis of the deposited data

Results flagged for a closer look

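For 5 genes of the list the response to CORT differed between the tissues by the test of the treatment by tissue term (log2 fold change in the liver minus that in the intestine). Apob had a difference of -1.78, from -0.14 in the liver and 1.64 in the intestine. Lipg had 3.28, from 2.45 and -0.83. Srebf1 had -2.91, from -1.71 and 1.20. Hnf4a had 1.08, from 0.86 and -0.21. Ppard, a nuclear receptor that fatty acids activate, had 1.22, from 0.48 and -0.74. The adjusted p of these 5 genes lay between 0.00474 (Lipg) and 0.0208 (Ppard) in limma. Of all 14806 genes tested, 3.6% passed this test, and none of the 9 lipoprotein and lipase genes did. Lipg and Srebf1 passed in all 17 alternative fits. None of these fits left out both Veh2 and Veh3 of the intestine, the libraries with acinar transcripts, or removed the acinar markers. The part of these libraries in the differences was thus not tested. With the replicate block Apob, Hnf4a and Ppard did not pass (limma adjusted p = 0.0647, 0.0617 and 0.0656), and Ppard also did not without CORT1 of the liver (1.19, limma adjusted p = 0.0554) or Veh3 of the intestine (1.17, limma adjusted p = 0.0572). The fit takes all libraries as independent, and whether liver and intestine libraries share animals is not given in the sources used here. No explanation was tested.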

How the results depend on the processing

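Of 360 values of the 9 genes under the alternatives, 326 kept their direction and side of the threshold, 9 lost a call, 8 gained one and 17, none called, changed sign. Within each tissue, the alternatives with unadjusted p-values and with no limit on fold change reuse the main fit under looser rules. There no value could change and no call could be lost. Angptl8 in the liver was -0.083 with median-ratio scaling. The other changes of sign came from leaving out a library, with ranges in the liver of -0.43 to 0.50 for Angptl8 (below 0 without Veh2, Veh3, CORT2 or CORT3), -0.065 to 0.52 for Apoa5 (without Veh1 or CORT2), -0.33 to 0.025 for Apoa1 (without Veh2), -0.17 to 0.061 for Apoe (without Veh2 or CORT3) and -0.20 to 0.14 for Lipc (without CORT3). In the intestine they were -0.18 to 0.25 for Apoe (without Veh1 or CORT2) and -0.25 to 0.28 for Lpl (without CORT3), and for the tissue term -0.066 to 0.52 for Apoa5 (without Veh1 or CORT2 of the liver) and -0.30 to 0.12 for Apoe (without Veh1 of the intestine).

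Genes called among the 9 in the liver numbered 2 with unadjusted p-values and 0 to 1 when a library was left out. In the intestine they numbered 0 with no filter on low values, with no trend and without both Veh libraries that held acinar transcripts, 2 with unadjusted p-values and 0 to 1 when a library was left out. For the tissue term they numbered 1 with median-ratio scaling and 0 to 1 when a library was left out. Of the list of 65, called genes in the liver numbered 4 with no filter and 3 to 11 when a library was left out. In the intestine they numbered 0 with no filter, 18 with unadjusted p-values, 0 without both acinar Veh libraries and 0 to 7 when a library was left out. Over all genes the 810 calls in the liver became 283 with no filter, 1808 with unadjusted p-values and 247 to 831 when a library was left out, and the 292 in the intestine became 52, 1395 and 66 to 237, and 10 without both acinar Veh libraries. Median-ratio scaling moved the share of higher calls in the liver from 71.0% to 53.7%.

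The same-numbered CORT and Veh libraries did not deviate together (r from -0.12 to 0.07), so the numbers were not taken as pairs. With the replicate block, calls numbered 6 of the list and 307 overall in the liver, and 0 of the 9 genes, 2 of the list and 62 overall in the intestine. In the intestine without the filter, Apoa5, Lipc and Lcat had 0.00, -0.20 and -0.19 and were not called. The causes of these differences were not tested. Unknown depth limits what can be said of genes near 1 TPM, such as Lpl.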
